A study of Mus musculus with 6 samples.

Results

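The genes described here are 10 stimulus-responsive transcription genes measured in mouse kidney: Fos, Fosb, Fosl1 and Fosl2 of the FOS family, Jun, Junb and Jund of the JUN family, and Egr1, Myc and Ier3. They were chosen by symbol, with earlier results of these data known, and all 10 were found among the 24422 genes listed in the count tables. RNA sequencing of poly-A RNA covered 6 whole kidneys taken at postnatal day 60 from C57BL/6 mice fed 220 ppm iron, which the labels call an iron sufficient diet. The 3 control kidneys are labelled wild type, and the 3 TfR1KO;KspCre kidneys carry the genotype Tfr1f/f;KspCre, in which exons of the transferrin receptor gene Tfrc are flanked by recombination sites and cut out by Cre. Cre was driven by the Ksp-cadherin promoter, which is active in the distal nephron, so that a whole-kidney library also holds RNA of cells in which Tfrc was not targeted. The comparison asks how the levels of these genes differed between the knockout and the control kidneys. The labels name 3 kidneys per genotype and give no sex, so p-values measure the spread between these 6 libraries.

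Immediate-early genes are transcribed within minutes of a stimulus from factors already present in the cell, such as SRF, the ternary complex factors and CREB, which are switched on by MAP kinases. FOS proteins pair with JUN proteins to form AP-1, a dimer of basic leucine zipper proteins that binds DNA, whereas JUN proteins can also pair among themselves. In the kidney several of these transcripts, such as those of Fos and Fosb, are low at rest and are known to climb after growth factors, ischaemia, toxic injury or handling of the tissue. EGR1 is a zinc finger factor of the same rapid response, MYC drives genes of growth and ribosome production, and IER3 modulates survival signalling.

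Promoter windows running from 250 before to 50 after the RefSeq start on GRCm38.p6 were searched for 7 of the 10 genes. These were Fos, Fosb, Fosl2, Jun, Junb, Jund and Ier3, and windows of Egr1, Fosl1 and Myc were not searched. The windows of 5 FOS and JUN genes are shown: Fosl2, Jun and Junb because they were called higher in the knockout kidneys, and Fos and Fosb, which were not called, because they had the largest log2 fold changes. Each is written 5′ to 3′ on the strand of its gene, and capitals mark matches to the motifs searched. The windows are chr12:85473640-85473939 (plus strand) for Fos, chr7:19309996-19310295 (minus) for Fosb, chr5:32136222-32136521 (plus) for Fosl2, chr4:95052173-95052472 (minus) for Jun and chr8:84978699-84978998 (minus) for Junb.
Fos: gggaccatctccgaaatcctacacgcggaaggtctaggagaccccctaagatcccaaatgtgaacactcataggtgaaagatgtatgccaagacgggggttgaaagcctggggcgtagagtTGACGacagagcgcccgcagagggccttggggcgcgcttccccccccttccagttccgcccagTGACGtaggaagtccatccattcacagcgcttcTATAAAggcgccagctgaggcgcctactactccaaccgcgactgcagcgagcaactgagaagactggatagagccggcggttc
Fosb: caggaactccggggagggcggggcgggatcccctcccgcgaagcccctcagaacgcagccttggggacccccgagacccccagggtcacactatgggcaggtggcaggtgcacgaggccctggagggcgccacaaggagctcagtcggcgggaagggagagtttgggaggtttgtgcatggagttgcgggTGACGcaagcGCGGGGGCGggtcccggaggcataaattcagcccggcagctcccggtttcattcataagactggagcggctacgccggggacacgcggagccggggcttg
Fosl2: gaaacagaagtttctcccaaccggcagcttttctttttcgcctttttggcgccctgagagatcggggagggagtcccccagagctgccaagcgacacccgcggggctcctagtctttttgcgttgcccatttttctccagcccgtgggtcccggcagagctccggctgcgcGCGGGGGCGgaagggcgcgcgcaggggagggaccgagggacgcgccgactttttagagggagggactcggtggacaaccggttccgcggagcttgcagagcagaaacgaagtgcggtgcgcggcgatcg
Jun: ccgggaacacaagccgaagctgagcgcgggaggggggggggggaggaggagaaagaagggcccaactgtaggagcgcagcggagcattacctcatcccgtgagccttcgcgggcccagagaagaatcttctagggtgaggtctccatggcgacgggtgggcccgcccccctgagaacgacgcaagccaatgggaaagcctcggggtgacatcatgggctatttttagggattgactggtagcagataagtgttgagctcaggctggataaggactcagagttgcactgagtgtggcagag
Junb: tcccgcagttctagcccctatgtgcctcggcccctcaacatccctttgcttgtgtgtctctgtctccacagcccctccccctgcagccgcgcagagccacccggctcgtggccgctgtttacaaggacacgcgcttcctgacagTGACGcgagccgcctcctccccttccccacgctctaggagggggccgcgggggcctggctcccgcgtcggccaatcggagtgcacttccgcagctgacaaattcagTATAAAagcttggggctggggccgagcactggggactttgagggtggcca
Positions are counted from 1 at the annotated start, with -1 just before it. The TATA box (TATAAA, searched on the gene's own strand only) matched in 2 of the 7 windows, at -33 to -28 in Fos and at 1 to 6 in Junb, against 8.32% of all 32851 windows. The EGR site (GCGNGGGCG, both strands) was present in 2 of 7, at -50 to -42 in Fosb and -79 to -71 in Fosl2, against 5.55% of windows. The cyclic AMP response element half-site (TGACG, both strands) was present in 3 of 7, at -129 to -125 and -66 to -62 in Fos, -60 to -56 in Fosb and -106 to -102 in Junb, against 20.8% of windows. The half-site was added to the search after the sequences had been seen. None of the 7 windows held the whole element TGACGTCA, which contains the half-site (1.79% of all windows), the AP-1 site TGANTCA (7.81%) or the CArG box bound by SRF (1.63%), each searched on both strands. A match is a run of letters in the window and was not linked to any level below. Sites outside the windows, or with other letters than those searched, were not looked for. A window without a match therefore does not show that the gene lacks such a site.

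Total counts per library lay between 11501053 (knockout 3) and 21001341 (control 1). On the first principal component of log2 CPM, with 69.4% of the variance, the controls took values of -72.6 to -53.2, knockout 1 lay at 9.67, knockout 3 at 82.1 and knockout 2 at 88.6. Tfrc stood at 138, 168 and 61.9 CPM (counts per 1e6 TMM-scaled counts) in controls 1 to 3 and at 214, 85.9 and 40.6 CPM in knockouts 1 to 3, so the groups overlapped and whole-gene counts of Tfrc did not check the labels. The library labelled control 2 held 52 Xist counts and 3980 counts of Y-linked genes, against at least 10458 Xist counts and at most 5 Y-linked counts in each of the other 5, and genotype was thus not balanced for this difference. Because of these features, log2 fold changes with and without control 2 and knockout 1 are given below.

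Of the 10 genes, 9 passed the filter on low counts, and 4 of them rose in the knockout kidneys at an adjusted p under 0.05 in edgeR's quasi-likelihood test: Fosl2, Jun, Junb and Myc. None fell. Across all 15171 genes tested, 17.2% were called in either direction, 10.6% were called higher and 6.64% lower. The other 5 (Fos, Fosb, Jund, Egr1 and Ier3) had positive log2 fold changes that missed the threshold. All 9 had an unadjusted p under 0.05, as did 21.0% of all genes tested in the upward direction. Each knockout library lay above each control library for 8 of the 9, all but Fosb, against 23.8% of all genes tested. The median log2 fold change was 1.75 over the 9 genes and 0.02 over all genes tested. In bulk tissue a larger number of expressing cells and more RNA per cell cannot be told apart.

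**Figure D1:**
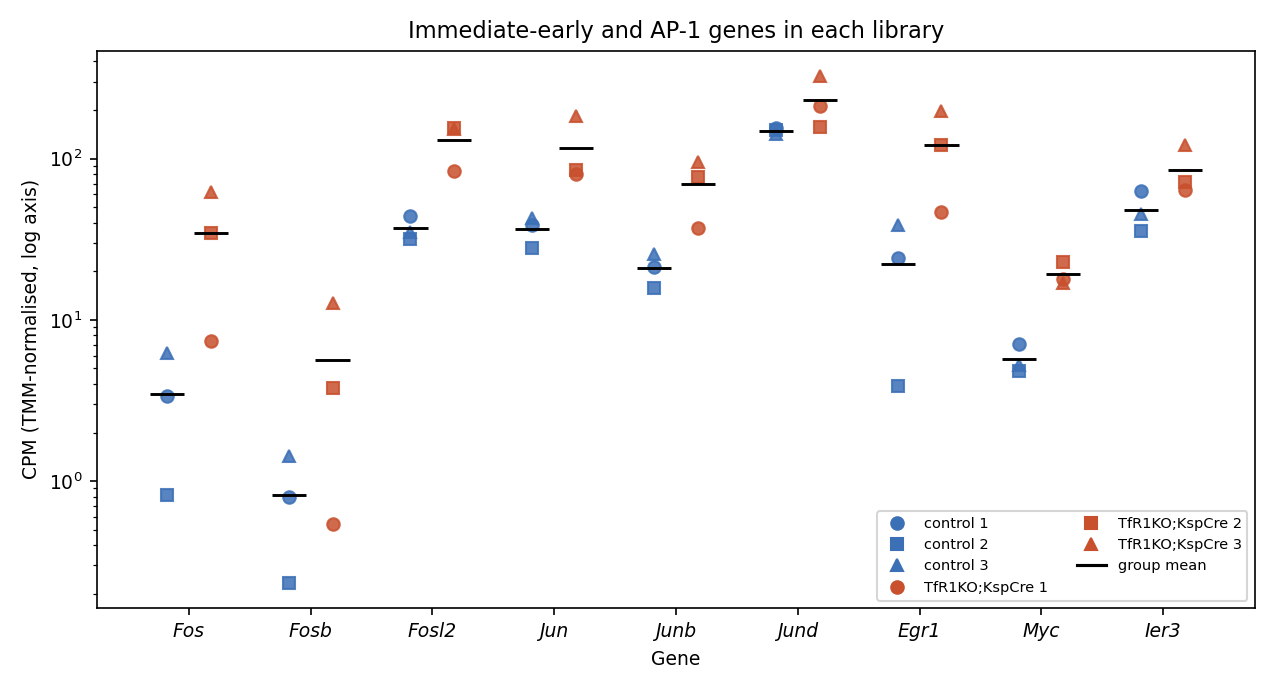
Level of the 9 tested genes in every library, in CPM on a log axis, with 1 point per kidney and the group means as lines. Knockout points lie above all control points for each of them except Fosb, whose knockout 1 value of 0.539 CPM falls between controls.

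Fos, the founding FOS gene and a standard marker of recent stimulation, lies on mm9 chromosome 12 at 86814840 to 86818223 (plus strand). It stood at 3.38, 0.822 and 6.24 CPM in controls 1 to 3 and at 7.36, 34.5 and 62.0 CPM in knockouts 1 to 3, from 14 to 104 counts in controls and 150 to 810 counts in knockouts. All knockouts exceeded all controls, but knockout 1 was close to control 3. The mean was 3.48 ± 2.71 CPM in controls and 34.6 ± 27.3 CPM in knockouts (errors are SD, n = 3 per group). The log2 fold change was 3.31 (SE 0.92) with an edgeR adjusted p of 0.0509, just above the threshold of 0.05. The Fos call changed with the method: DESeq2's Wald test gave an adjusted p of 0.000564 and limma-voom one of 0.121 (SE 1.26), and without knockout 1 edgeR gave a log2 fold change of 3.78 with an adjusted p of 0.00987. Without control 2, whose 0.822 CPM was the lowest value, the log2 fold change was 2.84 and the adjusted p 0.135.

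Fosb, a second rapidly induced FOS gene, lies on mm9 chromosome 7 at 19888070 to 19895394 (minus strand). It was read at 0.795, 0.235 and 1.44 CPM in controls and 0.539, 3.76 and 12.6 CPM in knockouts 1 to 3. The groups overlapped, with knockout 1 inside the control range and knockouts 2 and 3 above it. Its log2 fold change of 2.76 (SE 1.11) missed the threshold in edgeR (adjusted p = 0.117). The counts behind it ran from 4 in control 2 to 165 in knockout 3. Leaving out knockout 3 took the log2 fold change to 1.38, and leaving out knockout 1 took it to 3.29 with an edgeR adjusted p of 0.0216. Without control 2 it was 2.32 (adjusted p = 0.273). DESeq2 called Fosb with an adjusted p of 0.0263, whereas limma-voom gave 0.319.

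Fosl2 encodes FRA2, a FOS protein without the strong activation domain of FOS, and lies on mm9 chromosome 5 at 32438845 to 32460204 (plus strand). Its control values were 44.2, 31.7 and 34.8 CPM and its knockout values 83.7, 155 and 152 CPM. The groups were well apart, and knockouts 2 and 3 were nearly equal. The mean rose from 36.9 ± 6.50 to 130.3 ± 40.5 CPM (± SD, n = 3 per group), which makes a log2 fold change of 1.82 (SE 0.27) with an edgeR adjusted p of 0.0276. It was 1.71 without control 2 (adjusted p = 0.118) and 2.05 without knockout 1 (adjusted p = 0.00228). Fosl1, which encodes FRA1, lies on mm9 chromosome 19 at 5447703 to 5455945 (plus strand) and had 0, 1 and 0 counts in controls and 1 count in each knockout. Both groups were at or under a floor of 3 counts, so Fosl1 was not tested and no fold is given. The opposite strand of Fosl1 carries Ccdc85b over 1162 exonic bases, which adds uncertainty to its counts.

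Jun, the JUN gene that responds to stress kinases and to AP-1 itself, lies on mm9 chromosome 4 at 94715725 to 94718913 (minus strand). Levels were 38.6, 28.0 and 42.8 CPM in controls and 80.1, 85.2 and 183 CPM in knockouts. All knockouts were above all controls, and knockout 3 stood well above the other 2 knockouts. The mean rose from 36.5 ± 7.64 to 116 ± 57.9 CPM (± SD, n = 3 per group), which makes a log2 fold change of 1.67 (SE 0.36) with an edgeR adjusted p of 0.0326. Without knockout 3 the log2 fold change was 1.18 (adjusted p = 0.0565), without control 2 it was 1.5 (adjusted p = 0.121) and without knockout 1 it was 1.87 (adjusted p = 0.00982).

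Junb, whose protein binds AP-1 sites but activates less strongly than JUN, lies on mm9 chromosome 8 at 87500811 to 87502617 (minus strand). It was measured at 21.2, 15.8 and 25.6 CPM in controls and at 37.0, 77.1 and 94.8 CPM in knockouts 1 to 3. Knockout 1 lay between the controls and the other knockouts. The mean rose from 20.9 ± 4.92 to 69.6 ± 29.6 CPM (± SD, n = 3 per group), which makes a log2 fold change of 1.74 (SE 0.36) with an edgeR adjusted p of 0.0325. Without control 2 the Junb value was 1.56 (adjusted p = 0.121), and without knockout 1 it was 2.03 (adjusted p = 0.00288). Jund, the JUN gene that is steadily expressed in resting cells, lies on the same chromosome at 73221638 to 73224515 (plus strand). Its control values of 154, 149 and 142 CPM were tight, and its knockout values were 212, 157 and 325 CPM. The lowest knockout exceeded the highest control by little, and the log2 fold change of 0.64 (SE 0.27) missed the threshold (edgeR adjusted p = 0.128). The Jund log2 fold change was 0.31 without knockout 3, 0.63 without control 2 and 0.69 without knockout 1. Genes on the opposite strand overlap Jun over 232 exonic bases (BC042782) and Jund over 543 (Gm11175), and their reads may be mixed where strand was not used.

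Egr1, the zinc finger factor, lies on mm9 chromosome 18 at 35020861 to 35024638 (plus strand). The controls held 24.2, 3.88 and 38.9 CPM and the knockouts 46.4, 121 and 197 CPM. Egr1 varied as Fos did, with a low control 2 and with knockout 1 just above control 3. The mean was 22.3 ± 17.6 CPM in controls and 121 ± 75.2 CPM in knockouts (errors are SD, n = 3 per group), and the log2 fold change of 2.44 (SE 0.83) missed the threshold in edgeR (adjusted p = 0.0793). The log2 fold change was 1.93 without control 2 (adjusted p = 0.136) and 2.82 without knockout 1 (adjusted p = 0.0373). DESeq2 gave Egr1 an adjusted p of 0.00714 and limma-voom one of 0.0713.

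Myc lies on mm9 chromosome 15 at 61816946 to 61821929 (plus strand). It stood at 7.06, 4.82 and 5.28 CPM in controls and at 17.9, 22.9 and 17.0 CPM in knockouts. Myc was the steadiest of the called genes, with all 3 knockouts more than 2 times the highest control. The mean rose from 5.72 ± 1.18 to 19.3 ± 3.16 CPM (± SD, n = 3 per group), which makes a log2 fold change of 1.75 (SE 0.24) with an edgeR adjusted p of 0.0271. Over the fits that left out 1 library each, its log2 fold change ran from 1.61 to 1.91, with 1.63 without control 2 (adjusted p = 0.118) and 1.79 without knockout 1 (adjusted p = 0.00525). Ier3, on mm9 chromosome 17 at 35958629 to 35959868 (plus strand), had 62.5, 35.7 and 45.5 CPM in controls and 63.7, 71.1 and 121 CPM in knockouts. Knockout 1 and control 1 were nearly equal, and the log2 fold change of 0.83 (SE 0.31) missed the threshold (edgeR adjusted p = 0.0947), as did 0.65 without control 2 and 0.99 without knockout 1 (adjusted p = 0.0501).

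**Figure D2:**
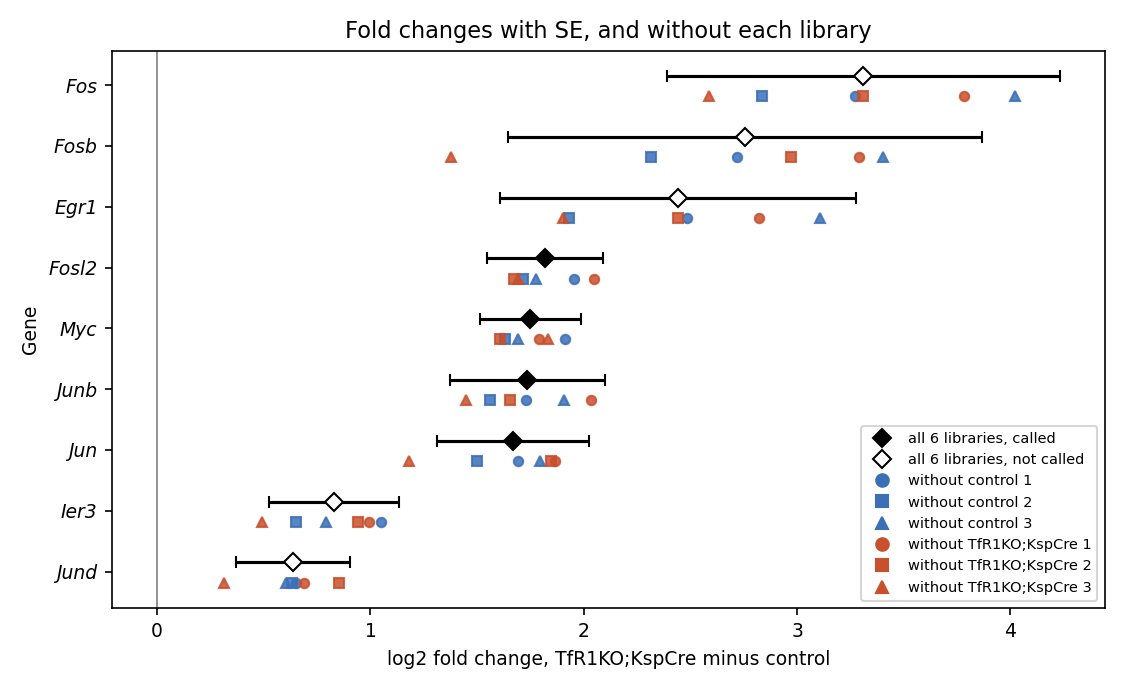
Log2 fold change of knockout over control for the 9 tested genes, with bars for 1 SE from edgeR's quasi-likelihood test and smaller marks for the fits that left out each of the 6 libraries. All values are above 0, from 0.64 for Jund to 3.31 for Fos in the full fit, and the genes with the widest bars are Fosb, Fos and Egr1.

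The order of the libraries was alike for most of the 9 genes but not for all. Control 2 was the lowest control for 8 of them, all but Jund, and in Fos, Egr1 and Fosb it lay at 0.171, 0.123 and 0.210 times the mean of the other controls. Knockout 3 was the highest knockout for 7 of the 9, and knockout 2 was the highest for Fosl2 and Myc. Knockout 1 was the lowest knockout for 7 of the 9. The mean of knockouts 2 and 3 was 15.2 times knockout 1 for Fosb, 6.56 times for Fos, 3.42 times for Egr1 and 2.32 times for Junb. For Fosl2, Jun, Ier3, Jund and Myc this ratio was 1.84, 1.67, 1.51, 1.13 and 1.11. Fosb and Fos were thus the most uneven of the 9 among knockouts, and Myc and Jund the least by this ratio. Without knockout 1 edgeR called 7 of the 9, adding Fos, Fosb and Egr1, and in that fit 2788 of all 15494 genes tested were called higher and 2544 lower. Without control 2 edgeR called none of the 9, with adjusted p of 0.118 to 0.273 and log2 fold changes of 0.63 to 2.84. It also called none of them without any 1 of the other 4 libraries, where the adjusted p of Fosl2, Jun, Junb and Myc lay between 0.055 and 0.096. In each of these 5 fits, 5 to 8 of the 9 genes had an unadjusted p under 0.05 in edgeR. So did 4270 to 4823 of all 15408 to 15624 genes tested, in either direction, and 0 to 73 of all genes tested were called. A covariate for the Xist and Y-linked difference of control 2 gave 0 calls in edgeR among all genes. With it 6 of the 9 genes had an unadjusted p under 0.05, as did 4221 of all 15171 genes tested, in either direction.

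Levels were compared between genes as RPKM, that is CPM per kilobase of merged exons. Jund had the highest level in controls at 51.6 ± 2.17 RPKM, followed by Ier3 at 42.4 ± 12.0, Junb at 11.6 ± 2.72 and Jun at 11.4 ± 2.39. Egr1 followed at 7.20 ± 5.67, Fosl2 at 6.30 ± 1.11, Myc at 2.10 ± 0.436, Fos at 1.48 ± 1.15 and Fosb at 0.219 ± 0.161 RPKM (± SD, n = 3 per group). Of neighbours in this order, only Ier3 and Junb, Fosl2 and Myc, and Fosb and Fosl1 had control values that did not overlap. Knockout levels were led by Jund at 80.3 ± 29.7 and Ier3 at 75.4 ± 27.5 RPKM. Next came Egr1 at 39.1 ± 24.3, Junb at 38.5 ± 16.4, Jun at 36.4 ± 18.2, Fosl2 at 22.3 ± 6.91, Fos at 14.7 ± 11.6, Myc at 7.09 ± 1.16 and Fosb at 1.5 ± 1.67 RPKM. Egr1 and Fos stood higher in the knockout order than in the control order, though neighbours overlapped except Myc with Fosb and Fosb with Fosl1. Fosl1 was last in both groups.

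Summed over the 4 FOS genes, the level was 9.20, 5.86 and 8.98 RPKM in controls and 17.6, 42.2 and 55.8 RPKM in knockouts. The 3 JUN genes summed to 77.5, 69.5 and 76.9 RPKM in controls and 119, 124 and 223 RPKM in knockouts. JUN transcripts thus outnumbered FOS transcripts per length in every library. The ratio of the FOS sum to the JUN sum was 0.107 ± 0.019 in controls and 0.246 ± 0.097 in knockouts (± SD, n = 3 per group), and the groups did not overlap. Jund made up 69.4 ± 5.33% of the JUN sum in controls and 52.1 ± 8.99% in knockouts, and Jun made up 15.2 ± 2.43% and 22.8 ± 2.58%, both without overlap. Junb shares (15.4% and 25.1% on average) overlapped between groups. Fosl2 held 80.2 ± 13.2% of the FOS sum in controls and 63.6 ± 17.3% in knockouts, and Fos 17.0 ± 11.9% and 33.3 ± 14.8%, both with overlap. A two-sided exact permutation test gave p = 0.1 for each value without overlap, the smallest p that 3 against 3 allows, and 0.2 after Benjamini-Hochberg adjustment over the 10 values compared, so none of these differences could pass 0.05.

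**Figure D3:**
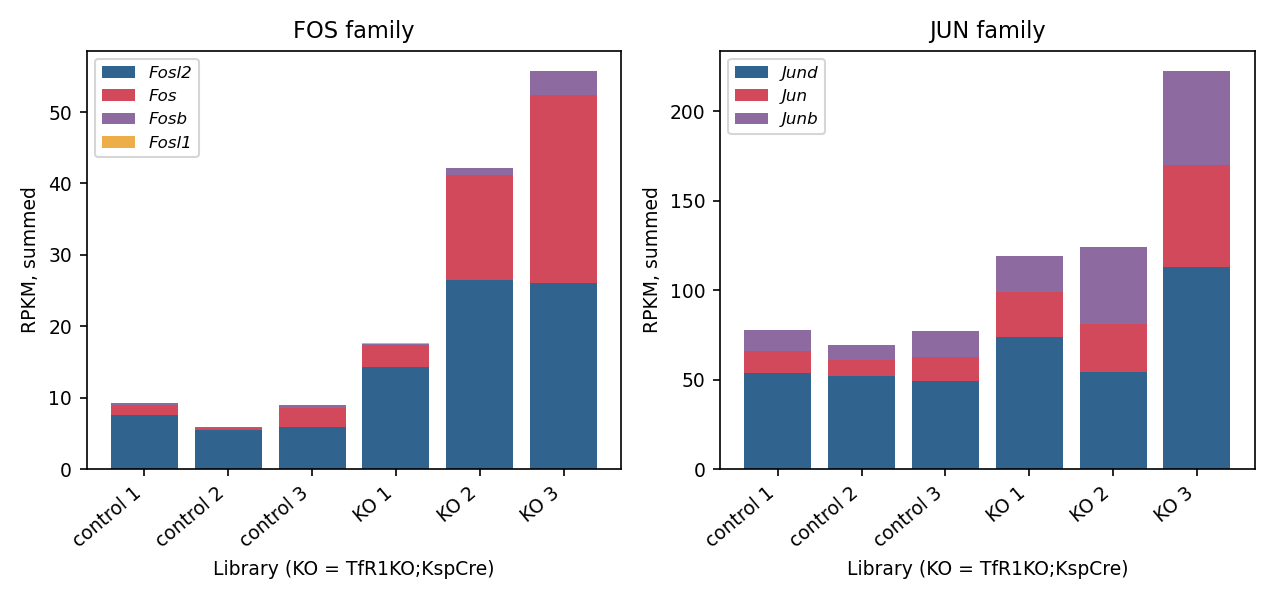
Make-up of the FOS family (4 genes) and JUN family (3 genes) in each of the 6 libraries, in RPKM. Jund takes the largest piece of the JUN sum in every library, at 69.4% on average in controls and 52.1% in knockouts, and Fosl2 takes most of the FOS sum in controls.

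Calls in the 7 lists from the AP-1 partners to the heat shock genes were lost in the same way: with any 1 of the 3 controls or knockout 3 left out edgeR called 0 genes of each list and at most 2 of all genes tested, and without knockout 2 it called 1 other immediate-early gene and 2 AP-1 targets, where 73 of all genes tested were called. The lists were chosen with earlier results of these data known, so their counts beside those of all genes are a description. Among 10 tested genes of the ATF, BATF and small MAF families, whose proteins pair with FOS or JUN or compete with them, 5 rose and none fell, with a median log2 fold change of 1.26, where 10.6% of all genes tested rose and 6.64% fell. Atf3, a stress-induced ATF gene, stood at 1.69, 1.35 and 3.12 CPM in controls and 15.8, 17.2 and 39.3 CPM in knockouts, and its log2 fold change was 3.55 (SE 0.50) at an adjusted p of 0.0271 in edgeR. Batf, an AP-1 partner best known from lymphocytes, had a log2 fold change of 3.05, the small MAF gene Maff one of 2.00 and Batf3 one of 1.93. Atf2 and Atf7, steadily expressed JUN partners and the uncalled genes of highest level here, had log2 fold changes of -0.20 and 0.36.

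The list of other immediate-early genes held 32 genes besides the 10, of which Egr4 did not pass the filter. Of the 31 tested, 15 rose and none fell (10.6% and 6.64% of all genes tested). A positive log2 fold change was found for 29 of the 31 and for 7810 of all 15171 genes tested, and the median over the list was 1.37. Egr2, a close relative of Egr1, stood at 0.746, 0.411 and 0.600 CPM in controls and at 3.43, 17.8 and 12.9 CPM in knockouts, and its log2 fold change was 4.25 (SE 0.67) at an adjusted p of 0.0277 in edgeR. Egr2 passed the threshold that Egr1 missed, and its controls were closer together than those of Egr1, though the difference between these genes was not tested. Egr3 had a log2 fold change of 4.03, the MAP kinase phosphatase gene Dusp2 one of 2.94 and the cytokine signalling inhibitor gene Socs3 one of 2.87. Ctgf, a secreted matrix-associated factor, had 1.91 without passing the test (adjusted p = 0.0669), and the clock gene Per1 had 0.54 (adjusted p = 0.302).

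Of 22 tested kinases and SRF or ternary complex factors, which act upstream of Fos and Egr1, 3 rose and none fell, with a median log2 fold change of 0.13. The share that rose, 13.6%, was near the 10.6% of all genes tested. DESeq2 called 4 of them higher and 2 lower, as did edgeR without knockout 1. Over all genes tested DESeq2 called 2646 higher and 2248 lower of 16684. EdgeR without knockout 1 called 2788 higher and 2544 lower of 15494. The 3 were the ternary complex factor Elk3 (1.06), the SRF coactivator gene Mkl2 (0.67) and Srf itself (0.56). Srf stood at 36.6 to 42.4 CPM in controls and 49.6 to 65.4 CPM in knockouts. The kinase gene Mapkapk2 had a log2 fold change of 0.33 without a call. Transcript levels carry no information on the phosphorylation through which these proteins act.

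Of 20 genes known as AP-1 targets, 18 were tested (all but Mmp10 and Il6), 10 rose and none fell, against 10.6% and 6.64% of all genes tested, with a median log2 fold change of 1.61. Without knockout 1 edgeR called 11 higher and 2 lower, where 2788 of all 15494 genes tested were called higher and 2544 lower. Timp1, an inhibitor of matrix metalloproteinases, stood at 0.547, 0.235 and 0.540 CPM in controls and at 8.88, 36.8 and 24.3 CPM in knockouts, and its log2 fold change was 5.70 (SE 0.66) at an adjusted p of 0.0271 in edgeR. The cytokine gene Lif had a log2 fold change of 4.45 and the hyaluronan receptor gene Cd44 one of 4.40. Spp1 (osteopontin) had 1.60 without a call (adjusted p = 0.0718), and the plasminogen activator gene Plau had -1.04 (adjusted p = 0.14). These genes answer to many factors besides AP-1, and binding was not measured.

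The MYC network list holds the dimer partners, antagonists and paralogs of Myc. Of its 10 tested genes, edgeR called none higher and 2 lower (over all genes tested the shares were 10.6% and 6.64%). DESeq2 called 1 higher (the paralog Mycl) and 2 lower, against 2646 and 2248 of all 16684 genes it tested. The 2 that fell were Mlx by 0.66 and the MYC antagonist Mxi1 by 0.56 on the log2 scale. Max, the obligate partner of MYC, stood at 53.4 to 61.1 CPM in controls and 57.4 to 60.1 CPM in knockouts (log2 fold change 0.03), and Mga, a MAX partner, had -0.04. Of 16 tested MYC target genes of growth and ribosome production, 1 rose and 1 fell (6.25% each), which is no larger a share than among all genes tested. The gene that rose was Nop56, a box C/D nucleolar protein gene, with a log2 fold change of 0.72. Odc1, the rate-limiting enzyme of polyamine synthesis, fell by 1.36 on that scale. Control 2 had 882 CPM of Odc1 against 402 and 496 CPM in the other controls. Ldha (-0.19) and Ncl (0.27) were not called, and the median over the 16 was 0.19. The called changes of the MYC network and target lists depended on scaling: with library size alone none of the network was called, and 5 targets rose and 1 fell. In that fit 2979 of all 15171 genes tested rose and 661 fell.

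Heat shock genes, which also respond fast to stress but through HSF1, were listed beside them. Of 9 tested, none rose and 1 fell (6.64% of all genes tested were called lower), the mitochondrial chaperonin gene Hspe1 (log2 fold change -0.95, edgeR adjusted p = 0.0498). Hspa8 and Hspd1 had -0.50 and -1.35 without a call, and the median was -0.22. Hspb1, a small heat shock protein gene named here after its values were seen, went the other way, at 33.3, 17.4 and 24.6 CPM in controls and 36.3, 52.2 and 100.6 CPM in knockouts. Its groups did not overlap, and its log2 fold change of 1.33 missed the threshold in edgeR (adjusted p = 0.0644). DESeq2 called 1 heat shock gene higher and 4 lower, against 2646 and 2248 of all 16684 genes it tested. With library size alone, without TMM, 2 heat shock genes were called higher, as were 2979 of all 15171 genes tested.

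**Figure D4:**
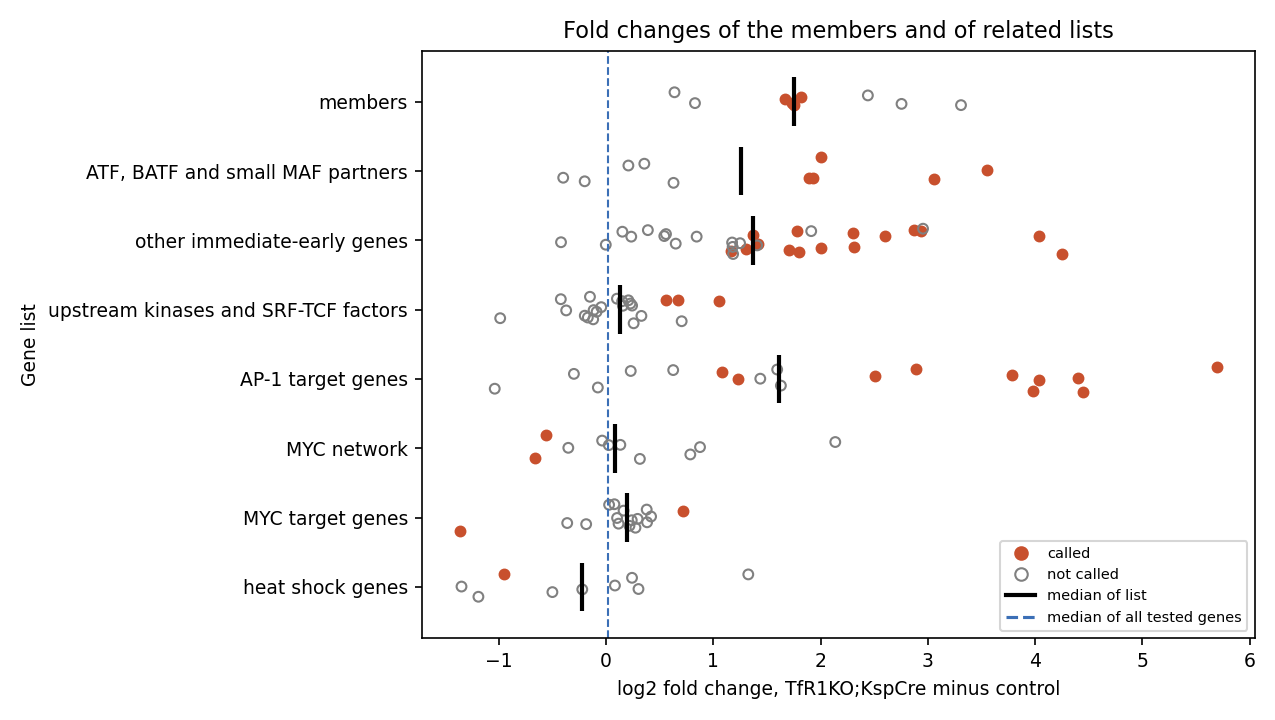
Log2 fold changes of knockout over control by gene list, with 1 point per tested gene and the list median marked. The medians are 1.75 for the 9 genes described here, 1.37 for other immediate-early genes, 1.61 for AP-1 targets and 1.26 for ATF, BATF and small MAF partners, against 0.13 for upstream genes, 0.08 for the MYC network, 0.19 for MYC targets and -0.22 for heat shock genes.

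Markers of other cell types moved with the genotype as well. Summed CPM of the 6 macrophage markers was 153 to 165 in controls and 338, 1016 and 402 in knockouts 1 to 3, with 5 of 6 called higher. Fibroblast and pericyte markers summed to 283 to 628 CPM in controls and 964, 3669 and 2901 CPM in knockouts, with 3 of 6 called higher. T and B cell markers summed to 2.82 to 4.26 CPM in controls and 9.12, 34.7 and 12.1 CPM in knockouts, with 2 of 6 called higher, and none of 3 tested neutrophil markers was called. The sum of the 10 genes described here was 356, 270.5 and 342 CPM in controls and 549, 727 and 1164 CPM in knockouts. Knockout 1 was the lowest knockout in all of these sums, but the macrophage and fibroblast sums peaked in knockout 2 and that of the 10 genes in knockout 3. Proximal tubule markers summed to 10942 to 16095 CPM in controls and 1596 to 5492 CPM in knockouts, with 5 of 6 called lower, and 1 distal convoluted tubule marker was called lower. Thick ascending limb markers, of a segment in which Ksp-cadherin is expressed, summed to 9703, 8857 and 3977 CPM in controls and 6195, 866 and 1181 CPM in knockouts. Of these 5 markers 4 had a negative log2 fold change, with a median of -1.46, and none passed the threshold. None of the markers of endothelium (median log2 fold change 0.37), collecting duct (-0.23) or podocytes (0.36) passed it either. The share of the ribosomal RNA gene Rn45s was 2.59% of counts in knockout 3, the library highest for 7 of the 9 genes, and 0.506% to 0.745% in the other 5. The part of these markers and of the Rn45s share in the levels of the 10 genes was not tested.

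**Figure D5:**
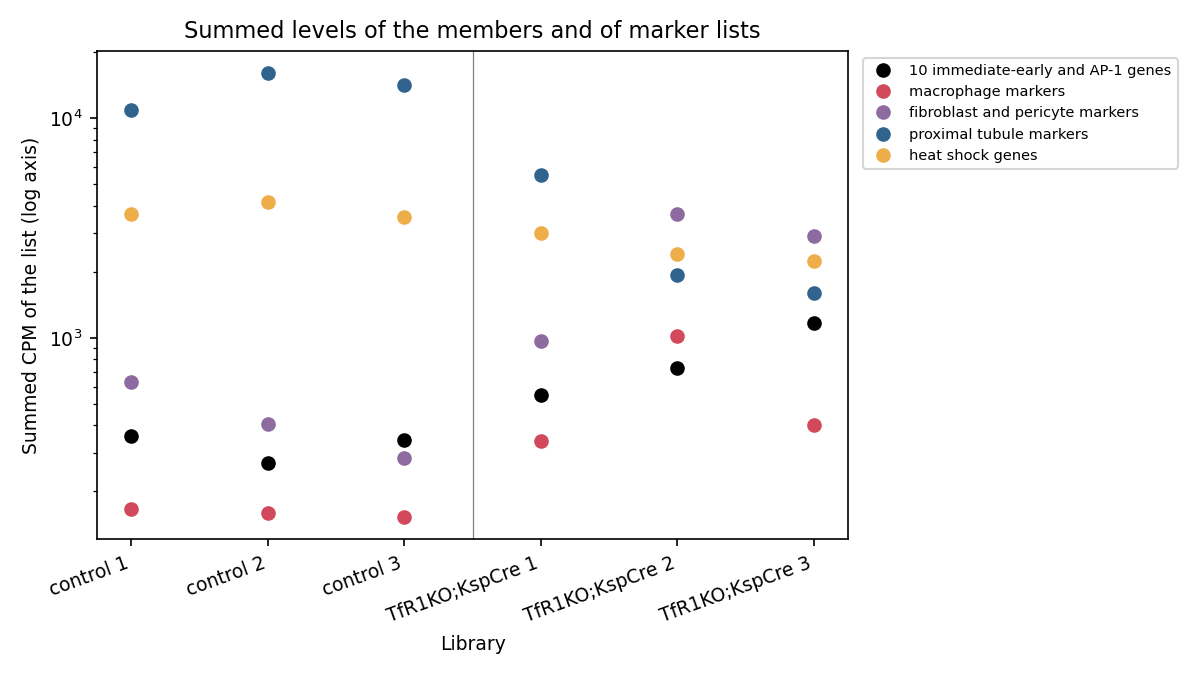
Summed CPM of marker lists and of the 10 genes in each library, on a log axis. Macrophage and fibroblast sums are highest in knockout 2 (1016 and 3669 CPM), the sum of the 10 genes is highest in knockout 3 (1164 CPM), and the proximal tubule sum is lowest in knockout 3 (1596 CPM).

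For 3 of the genes the most similar profiles were sought by Pearson's r of log2 CPM over the 6 libraries among 11074 other genes. Closest to Fos were Rpl31, Rpl37a and Rab13, each with r of 0.993. Junb was nearest to Sugp2, Twf2 and Rps16, each with r of 0.999, and Myc to Fam129a (0.997), Homer3 (0.996) and Rin1 (0.996). With 6 libraries in 2 groups these values are a description.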

How the data were processed

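Poly-A RNA of 3 control and 3 TfR1KO;KspCre whole kidneys was sequenced. The values deposited by the authors are raw counts per gene, made with CASAVA 1.8.2, Trimmomatic, TopHat2 2.0.11 on mm9 and HTSeq per the submitters' processing notes; the annotation and strand setting are not given in the sources used here. Depth per library was 11501053 to 21001341 counts, and the floor of 3 counts covers counting error only. Between replicates the chi-square was 52.9 to 125.5 per degree of freedom, so each library counted once.

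Counts were fitted in R 4.3.3 with edgeR 4.0.16 (limma 3.58.1 for voom): filterByExpr (minimum count 10, minimum total 15), TMM, and the quasi-likelihood test over all 6 libraries with no covariate, with Benjamini-Hochberg adjustment over 15171 genes and calls at an adjusted p under 0.05. The SE is the log2 fold change divided by the square root of F. The scripts were tested on simulated data. Exon lengths and coordinates came from GENCODE M1 on mm9, and promoter windows from RefSeq (GRCm38.p6). No 100-base word of the longest protein-coding transcript of any of the 10 genes was found in protein-coding transcripts of other genes. Noncoding and opposite-strand sequences were not searched.

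The 10 genes and all lists were chosen with earlier results of these data known. From each list the text names the 4 largest called changes and the 2 uncalled genes of highest mean CPM (2 genes that this rule picks are not reported here), and profiles were compared for 3 of the genes. Alternatives were other scalings, filters and tests (DESeq2 1.42.0, limma-voom), leaving out each library, the replicate number as a block and a covariate for sex-linked transcripts (log2 of Xist over Y-linked counts).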

Additional observations from a re-analysis of the deposited data

How the results depend on the processing

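The log2 fold change of each of the 9 genes that passed the filter was positive in all fits run that tested it, and Fosl2, Jun, Junb and Myc were each called in 11 of 18 fits, whereas Jund and Ier3 were called in none. DESeq2's Wald test called 7 of the 10 genes, and 4894 genes in all (main 2612), 6 upstream genes and 5 heat shock genes. Leaving out 1 library at a time gave 0 to 7 calls among the 10 genes, 0 to 5332 among all genes, 0 to 5 among ATF, BATF and small MAF partners, 0 to 20 among other immediate-early genes, 0 to 6 among upstream genes, 0 to 13 among AP-1 targets, 0 to 2 in the MYC network, 0 to 2 among MYC targets and 0 to 4 among heat shock genes. The replicate number as a block gave 0 calls in every list and among all genes, where 5432 genes had p under 0.05 before adjustment in edgeR. The Xist-to-Y covariate also gave 0 calls in every list and among all genes, where 4221 had p under 0.05 before adjustment. Same-numbered libraries deviated together with correlations of -0.13, 0.01 and 0.21, and 2 of the 6 libraries correlated best with their own number. These values gave no sign that the numbers pair the libraries, but 3 libraries per group could not exclude it. Requiring at least 10 counts in every library gave 3 partners, 6 AP-1 targets, 1 MYC network gene, 1 MYC target and 0 heat shock genes. Library size alone gave 5 upstream genes, 0 MYC network genes, 6 MYC targets and 2 heat shock genes. It moved the median of all genes by 0.27 on the log2 scale and gave 81.8% of calls higher, against 61.4% in the main result. Calls higher were 54.1% with DESeq2, 54.8% with limma-voom and 66.9% with upper quartile scaling. Limma-voom called 1 upstream gene, 1 MYC network gene and 0 heat shock genes. Upper quartile scaling and no filter each gave 1 MYC network gene, no filter gave 0 heat shock genes, and DESeq2 size factors in edgeR gave 2. Fos was called also with library size alone, with no filter and with the newer quasi-likelihood version. The cause of these differences was not tested. With 3 libraries per group and 0 to 1 Fosl1 counts per library, depth did not allow Fosl1 to be compared.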
